A study of Mus musculus with 14 samples.

Results

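Nodal, Gdf3, Tdgf1, Foxh1, Lefty1, Lefty2 and Cer1, which are the ligands, the coreceptor, the nuclear cofactor and the secreted inhibitors of the Nodal pathway, were followed through 12 days of embryoid body (EB) differentiation. The 7 genes were taken by symbol from the deposited table of normalized counts, which lists 16181 of the 50686 genes of the count table, and all 7 were found. From d6 to d10 most of them stood several-fold lower in the line with an shRNA against Dis3l2 (shDis3l2) than in the control line with an shRNA against LacZ (shLacZ). By d12 Lefty1 and Lefty2 had returned to the control level or above it, while Foxh1 and Cer1 had not.

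Nodal is a secreted signal of the TGF-beta family that holds the early epiblast in its uncommitted state and later directs mesoderm and endoderm formation and left-right asymmetry. It signals through activin receptors together with an EGF-CFC coreceptor, and activated SMADs then bind DNA with FOXH1 at target genes that include Nodal itself and the Lefty inhibitors. The pathway therefore holds a positive loop and a negative loop, and the Lefty genes are commonly read as a reporter of its activity.

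Mouse embryonic stem cells (ESCs) of either line were grown undifferentiated in LIF with 2i (d0), and differentiation was started by taking LIF and 2i away and forming EBs in hanging drops in serum, with RNA taken every 2 days up to d12. PolyA RNA of each line and day was sequenced once, which gave 14 libraries. By the study's text the lines carry a stable hairpin and an Osr1-GFP reporter, so either condition is 1 line, and a difference between the lines cannot be told apart from a difference between 2 cultures. The reads assigned to genes ranged from 7178712 to 39888099, and 3 reads, at or under which a gene counts as at the floor, correspond to 0.0752 to 0.418 CPM, a count scaled to the same total in every library. The level of Dis3l2 itself in shDis3l2, as a share of that in shLacZ, was 13.7% in the ESCs and then 28.1%, 32.1%, 55.2%, 97.1%, 94.98% and 75.4% through the 6 later days, so its reads were close to the control level at d8 and d10. The labels' cell types were met at the start: the 7 pluripotency markers summed at d0 to 3050.5 CPM (shLacZ) and 2159 CPM (shDis3l2), with none at the floor, and the 6 visceral endoderm-like markers to 3.18 and 2.79 CPM.

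RefSeq promoters on GRCm38.p6 were at hand for only 3 of the 7 genes, Nodal, Tdgf1 and Cer1, and these are shown. Each is the 250 bases before the start of the gene in RefSeq, which for Cer1 differs slightly from the start in the annotation of the counts, 5′ to 3′ on the strand of the gene, and capitals mark a match to a motif that was searched.
Nodal (chr10:61417722-61417971, plus strand): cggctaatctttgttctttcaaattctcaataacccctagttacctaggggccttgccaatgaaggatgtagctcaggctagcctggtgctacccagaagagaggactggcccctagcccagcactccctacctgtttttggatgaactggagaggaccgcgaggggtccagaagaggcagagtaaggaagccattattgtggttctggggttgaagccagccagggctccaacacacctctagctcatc
Tdgf1 (chr9:110946159-110946408, minus strand): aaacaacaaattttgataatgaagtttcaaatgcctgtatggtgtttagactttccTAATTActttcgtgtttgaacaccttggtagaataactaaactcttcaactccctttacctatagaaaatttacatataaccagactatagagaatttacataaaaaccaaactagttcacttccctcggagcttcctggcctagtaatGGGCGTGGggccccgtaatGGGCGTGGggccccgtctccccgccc
Cer1 (chr4:82885152-82885401, minus strand): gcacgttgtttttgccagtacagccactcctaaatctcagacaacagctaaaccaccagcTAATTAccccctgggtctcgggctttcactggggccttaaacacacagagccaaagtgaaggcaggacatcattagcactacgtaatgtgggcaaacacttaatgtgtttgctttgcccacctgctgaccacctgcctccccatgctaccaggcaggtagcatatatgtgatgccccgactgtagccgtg

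The palindrome TAATTA, a core of many homeobox factor sites, began 194 bases before the start of Tdgf1 and 190 bases before that of Cer1, and 4.84% of all 32851 RefSeq promoters hold it in a window of this length. Tdgf1 also holds the letters GGGNGTGG, a KLF-type motif, at 45 and at 26 bases before its start, a motif that was added after the sequences were seen and that 15.9% of all promoters hold. On neither strand did the 3 windows hold the FOXH1-type letters AATNCACA, the octamer ATTTGCAT, the bicoid-type TAATCC or the T-box letters GGTGTGA, which 3.18%, 1.601%, 6.25% and 3.33% of all promoters hold. These are letters in a window and not known sites, and sites further away were not searched. No motif searched overlapped another in these windows.

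In the annotation deposited with the counts, on GRCm38, Nodal (ENSMUSG00000037171) lies at chr10:61417972-61425338, Gdf3 (ENSMUSG00000030117) at chr6:122605403-122610087, Tdgf1 (ENSMUSG00000032494) at chr9:110939603-110946158 and Foxh1 (ENSMUSG00000033837) at chr15:76668284-76669948. Lefty1 (ENSMUSG00000038793) at chr1:180935022-180938400 and Lefty2 (ENSMUSG00000066652) at chr1:180893108-180899103 are neighbours on chromosome 1, and Cer1 (ENSMUSG00000038192) lies at chr4:82881751-82885148. The reads were counted over the exons of each gene, and no other GENCODE gene overlaps any of the 7. Of all windows of 50 bases in the longest transcript, 17.9% of those of Lefty1 are also found in Lefty2 and 12.5% of those of Tdgf1 in the pseudogene Tdgf1-ps1. Reads of these stretches cannot be assigned to 1 gene, so the values of Lefty1, Lefty2 and Tdgf1 are uncertain to that extent.

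The levels by line and day are described first, with no test, since each line and day has 1 library. In bulk RNA, fewer cells that express a gene and less RNA of it per cell cannot be told apart. On the scale of CPM per kilobase of gene length (RPKM), which allows genes to be compared, Tdgf1 was the most abundant of the 7 at d0, with 152.5 RPKM in shLacZ and 116.1 in shDis3l2. Nodal followed with 50.5 and 71.2 RPKM and Gdf3 with 43.9 and 37.3 RPKM. The 95% counting interval of the ratio between neighbours in this order left out 1 for each pair of the 6 genes detected at d0, in both lines. At d12 the order was less clear. In shLacZ, Foxh1 at 21.8 and Tdgf1 at 18.8 RPKM did not differ beyond counting error, and neither did neighbours among Lefty2, Gdf3, Lefty1 and Nodal, which lay between 4.54 and 6.19 RPKM. In shDis3l2 at d12, Tdgf1 led with 13.3 RPKM, followed by Lefty1 at 7.14, Foxh1 at 6.60 and Lefty2 at 6.42 RPKM, which did not differ between neighbours, and by Gdf3 at 3.79 and Nodal at 2.86 RPKM.

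Nodal is the ligand that gives the pathway its name. In shLacZ, Nodal stood at 105.9, 113.2, 105.6, 12.1, 11.9, 15.01 and 9.52 CPM at d0, d2, d4, d6, d8, d10 and d12. In shDis3l2 it stood at 149.1, 106.0, 97.0, 4.81, 1.73, 3.27 and 5.99 CPM on the same days. Both lines thus kept a high level up to d4 and dropped by d6, and the drop went further in shDis3l2, with its lowest point at d8. The level of shDis3l2 was 2.52-fold lower at d6 (95% counting interval 1.83 to 3.52), 6.87-fold lower at d8 (4.76 to 10.2), 4.59-fold lower at d10 (3.39 to 6.26) and 1.59-fold lower at d12 (1.15 to 2.22). At d0 it was 1.41-fold higher (1.35 to 1.47). With TMM or DESeq2 size factors, which are other ways to scale the libraries, this was 1.61-fold or 1.85-fold, outside the counting interval.

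Gdf3, a related ligand that can act with Nodal and also restrain BMPs, is best known from pluripotent cells. In shLacZ it went from 106.5 CPM at d0 to 50.6 at d2, 18.7 at d4 and 10.3 at d6, and then stood at 16.6, 13.3 and 13.6 CPM at d8, d10 and d12. In shDis3l2 it was at 90.5, 47.4, 6.18, 0.754, 2.14, 5.54 and 9.18 CPM at d0, d2, d4, d6, d8, d10 and d12. At d4 Gdf3 was the one gene of the 7 that stood at least 3-fold lower in shDis3l2, by 3.02-fold (2.35 to 3.88). At d6, with 8 reads in shDis3l2 against 137 in shLacZ, it was 13.7-fold lower (6.74 to 32.3), and within shDis3l2 its level at d12 was 12.2 times that at d6 (5.94 to 29.0). In shLacZ the same ratio was 1.32 (1.03 to 1.68), and at d12 the lines differed by 1.48-fold (1.13 to 1.94).

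Tdgf1 encodes Cripto, the EGF-CFC coreceptor of Nodal. In shLacZ it stood at 399.9, 430.5, 458.9, 52.9, 58.1, 77.5 and 49.4 CPM at d0, d2, d4, d6, d8, d10 and d12. In shDis3l2 it was at 304.4, 407.6, 855.4, 6.97, 8.04, 11.6 and 34.9 CPM. The peak at d4 was higher in shDis3l2 and the trough after it deeper. Between d4 and d6 Tdgf1 fell 8.67-fold in shLacZ (7.99 to 9.42) and 122.7-fold in shDis3l2 (97.6 to 156.3). The shDis3l2 level was 1.86-fold higher at d4 (1.80 to 1.94), then 7.59-fold lower at d6 (5.96 to 9.78), 7.23-fold lower at d8 (6.10 to 8.60) and 6.68-fold lower at d10 (5.75 to 7.77). At d12 it was 1.41-fold lower (1.23 to 1.62).

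Foxh1 encodes the DNA-binding cofactor of the activated SMADs. In shLacZ it stood at 19.7, 76.0, 131.8, 76.2, 19.3, 35.8 and 28.5 CPM at d0, d2, d4, d6, d8, d10 and d12. In shDis3l2 it was at 5.17, 79.1, 155.5, 61.1, 3.66, 5.30 and 8.62 CPM. Foxh1 was still high at d6, when the ligands were low, and its level at d8 was 16.7-fold below that at d6 in shDis3l2 (13.1 to 21.6) against 3.95-fold in shLacZ (3.48 to 4.49). It was 5.26-fold lower in shDis3l2 at d8 (4.07 to 6.89), 6.75-fold lower at d10 (5.42 to 8.47) and 3.30-fold lower at d12 (2.60 to 4.23). At d0 it was 3.799-fold lower (3.16 to 4.59), or 2.90-fold with the size factors of DESeq2, a scaling that moved the median gene of that day from -0.32 to 0.08 on the log2 scale.

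Lefty1 and Lefty2 encode secreted antagonists that bind Nodal and its coreceptor and are themselves targets of the pathway. In shLacZ, Lefty1 stood at 23.2, 71.9, 10.3, 7.22, 9.47, 12.7 and 8.83 CPM at d0, d2, d4, d6, d8, d10 and d12. In shDis3l2 it was at 22.1, 66.0, 12.5, 0.848, 1.98, 6.49 and 12.5 CPM. Lefty1 peaked at d2 in both lines, at nearly the same height. It was 8.51-fold lower in shDis3l2 at d6 (4.30 to 19.2), where that library held 9 reads, 4.77-fold lower at d8 (3.34 to 6.96) and 1.96-fold lower at d10 (1.50 to 2.54). At d12 it was 1.42-fold higher (1.08 to 1.88).

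Lefty2 differed from Lefty1 at d4. In shLacZ, Lefty2 stood at 75.8, 47.5, 15.3, 15.7, 16.0, 13.6 and 16.2 CPM over the 7 days. In shDis3l2 it was at 54.1, 43.7, 44.3, 1.70, 3.36, 10.1 and 16.8 CPM. Lefty2 was thus already low at d4 in shLacZ, while in shDis3l2 it was still near its d2 level at d4 and low only at d6. It was 2.89-fold higher in shDis3l2 at d4 (2.37 to 3.55), where Lefty1 was 1.21-fold higher with an interval that holds 1 (0.934 to 1.59). It was then 9.26-fold lower at d6 (5.72 to 15.9), 4.76-fold lower at d8 (3.62 to 6.32) and 1.34-fold lower at d10 (1.05 to 1.69). At d12 the ratio of shDis3l2 to shLacZ was 1.04 (0.834 to 1.29). Within shDis3l2, the level at d12 was 14.8-fold that at d6 for Lefty1 (7.56 to 33.1) and 9.88-fold for Lefty2 (6.07 to 17.1), against 1.22-fold (0.906 to 1.65) and 1.03-fold (0.833 to 1.27) in shLacZ.

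Cer1 encodes Cerberus-like, a secreted antagonist of Nodal and BMP signals made by the anterior visceral endoderm and by early mesendoderm. In shLacZ it held 0, 4, 89, 6, 12, 32 and 41 reads at d0, d2, d4, d6, d8, d10 and d12. In shDis3l2 it held 0, 0, 701, 4, 7, 4 and 4 reads on these days. Cer1 was thus a gene of d4 in both lines, with 12.4 and 33.9 CPM in shLacZ and shDis3l2, and at d10 and d12 its counts were well above the floor in shLacZ and close to it in shDis3l2. Between d2 and d4 it rose 81.8-fold in shLacZ (30.8 to 306.7) and at least 241.6-fold in shDis3l2, taken against 3 reads in the d2 library. At d4 it was 2.73-fold higher in shDis3l2 (2.19 to 3.45). At d6 and d8 the intervals of the line ratio held 1, from 0.174 to 3.53 and from 0.167 to 1.38, so no difference was detectable at this depth. At d10, with 3.87 against 0.189 CPM, it was 20.4-fold lower in shDis3l2 (7.25 to 79.6), and at d12, with 4.07 against 0.375 CPM, it was 10.9-fold lower (3.93 to 41.7).

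**Figure D1:**
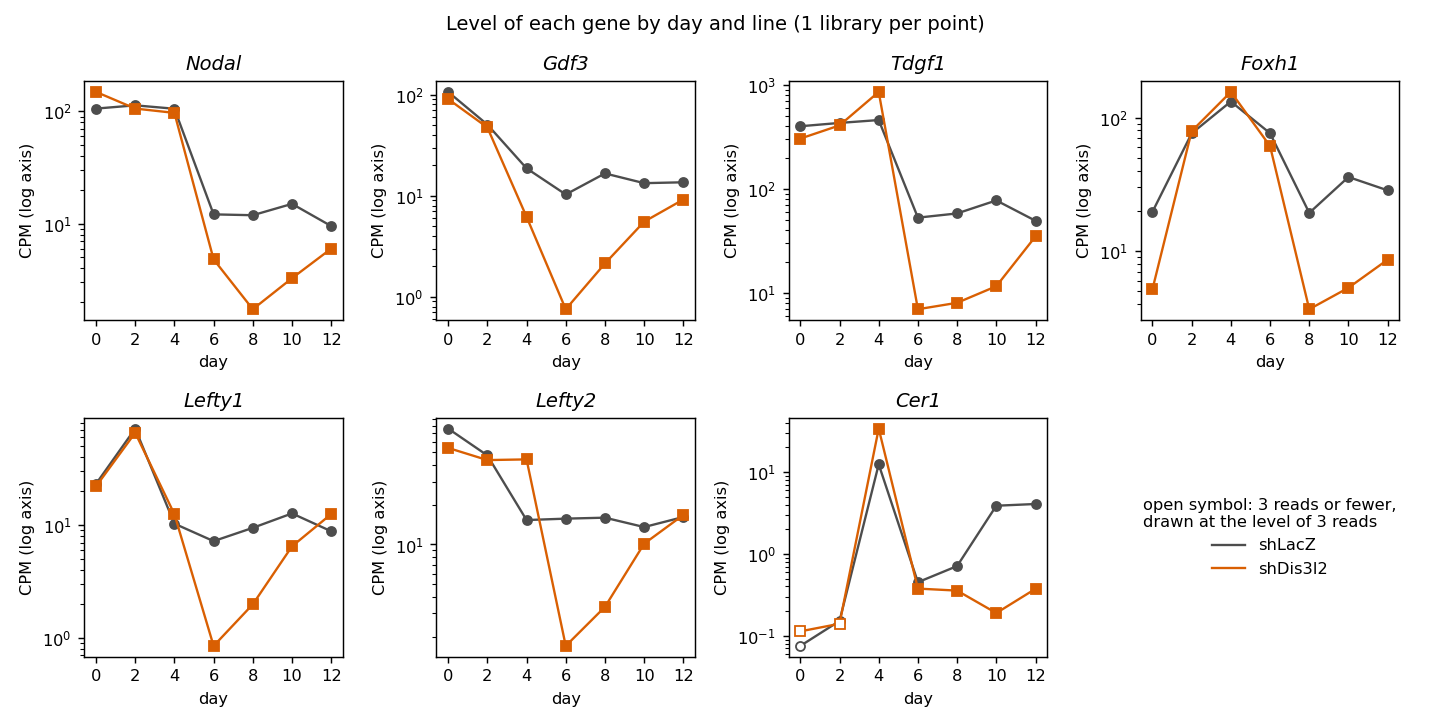
Level of each of the 7 genes in CPM (log axis) against the day, with 1 point per library, grey circles for shLacZ and orange squares for shDis3l2. Open symbols are libraries with 3 reads or fewer, drawn at the level of 3 reads, and the shDis3l2 points lie below the shLacZ points for all 7 genes at d6, d8 and d10.

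Between successive days, with the lines as a block, edgeR's quasi-likelihood test asked which changes were larger than the spread left between the libraries. The lines are the sole repeat of a day, so these values describe the 2 lines and not other cultures. From d0 to d2, 65.5% of the 20050 genes tested were called at a Benjamini-Hochberg adjusted p under 0.05, and 1 of the 7 genes was. Foxh1 rose by 2.44 ± 0.70 (SE) on the log2 scale (edgeR adjusted p = 0.0112), in both lines, and was no longer called without the shDis3l2 library of d0 or of d2. Gdf3 had a log2 value of -1.63 ± 0.69 (edgeR adjusted p = 0.0578) and was called by DESeq2 and without a filter. From d2 to d4, 17.5% of genes were called, and 2 of the 7. Cer1 rose (edgeR adjusted p = 0.00565) in both lines, its fitted size being left out because 1 library of d2 had no read, and Lefty1 fell by 2.56 ± 0.70 on the log2 scale (edgeR adjusted p = 0.0320). Lefty1 was no longer called without any 1 of the 4 libraries of these days (highest edgeR adjusted p = 0.192), and Cer1 was no longer called without the shDis3l2 library of d2 (edgeR adjusted p = 0.0557).

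From d4 to d6, 13.8% of genes were called, and 3 of the 7. Nodal fell by 3.67 ± 0.74 on the log2 scale (edgeR adjusted p = 0.0117). Tdgf1 fell by 5.01 ± 1.03 (edgeR adjusted p = 0.0128) and Cer1 by 6.29 ± 1.34 (edgeR adjusted p = 0.0168), each in both lines. The ligand, its coreceptor and the d4 antagonist therefore fell over the same 2 days. None of the 3 was called without the shDis3l2 library of d4 or of d6, and Tdgf1 alone was without the shLacZ library of d6. From d6 to d12, 7.18% of genes were called, and 0 of the 7 by edgeR, with 1 of them, Foxh1, at an unadjusted p under 0.05. DESeq2 called Foxh1 over this interval.

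The lines were then compared day by day, counting a gene as changed when its level differed at least 3-fold and reached 1 CPM in 1 of the 2 libraries. At d0 1 of the 6 genes that reached 1 CPM, Foxh1, was lower in shDis3l2, as were 2.25% of all protein-coding genes tested. At d2 none of the 6 had changed at least 3-fold, against 0.243% of genes in either direction, and the intervals of Gdf3, Foxh1 and Lefty2 held 1. At d4 1 of 7, Gdf3, was lower, against 1.68% of genes, and with TMM scaling Lefty2 was instead counted as higher and Gdf3 was not counted. Tdgf1, Foxh1, Lefty2 and Cer1 were higher in shDis3l2 at d4 with intervals above 1, each by less than 3-fold.

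From d6 the count rose. At d6 4 of 6 genes, Gdf3, Tdgf1, Lefty1 and Lefty2, were at least 3-fold lower in shDis3l2, against 4.23% of genes, with Nodal just outside at 2.52-fold. At d8 all 6 genes that reached 1 CPM were lower, against 3.71% of genes, and the median of the 6 was -2.58 on the log2 scale against 0.03 over all genes tested. At d10 4 of 7, Nodal, Tdgf1, Foxh1 and Cer1, were lower, against 3.12% of genes. At d12 2 of 7, Foxh1 and Cer1, were lower, against 1.5% of genes, and the median of the 7 had come back to -0.57 against 0.05 over all genes. On no day was any of the 7 at least 3-fold higher in shDis3l2 on this scaling. The number of genes that reached 1 CPM depends on the line in which they are high, so these shares hold for the genes tested on that day.

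**Figure D2:**
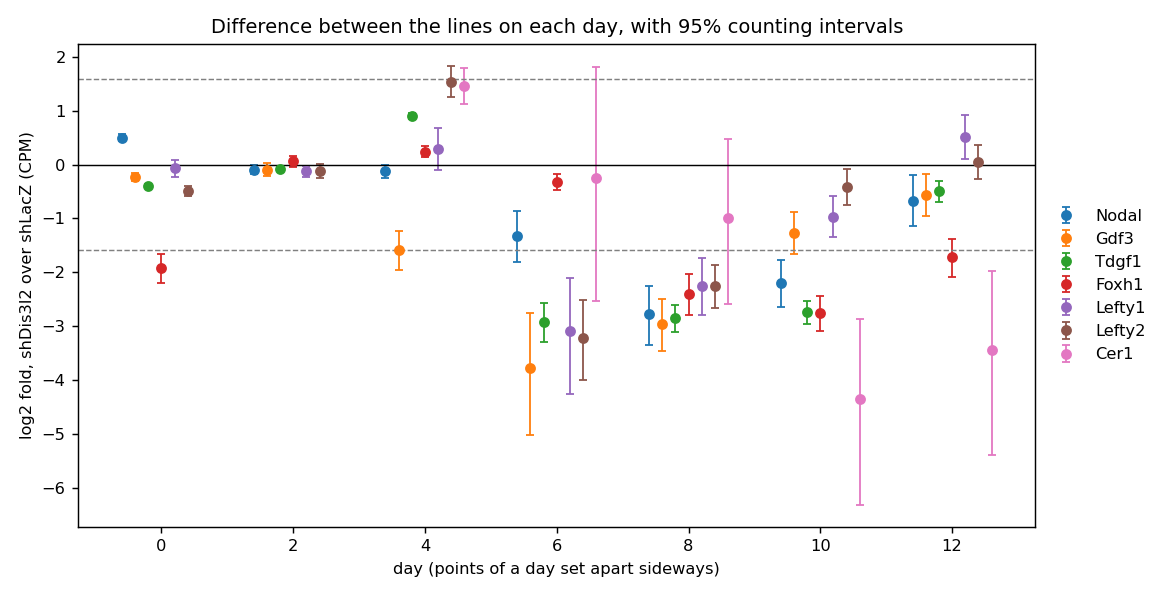
Log2 ratio of CPM between shDis3l2 and shLacZ on each day for each of the 7 genes, with bars for the 95% counting interval and dashed lines at a 3-fold difference. Pairs with 3 reads or fewer in a library are not drawn. At d8 the 6 genes other than Cer1 lie between -2.96 and -2.25, below the dashed line.

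Over d6 to d12 as a whole, with day as a block, edgeR called 5 of the 7 genes lower in shDis3l2 and none higher, and 18.7% of the 17164 genes tested were called lower. The days of 1 series stand in for replicates here, so the test sets the mean difference between the lines against its spread over the days. Tdgf1 was lower by a log2 value of -2.24 ± 0.41 (edgeR adjusted p = 0.00601) and Nodal by -1.74 ± 0.33 (edgeR adjusted p = 0.00734). Foxh1 followed with -1.73 ± 0.38 (edgeR adjusted p = 0.0129), Gdf3 with -1.92 ± 0.48 (edgeR adjusted p = 0.0189) and Cer1 with -2.52 ± 0.67 (edgeR adjusted p = 0.0243). The level of each of these 5 genes was lower in shDis3l2 on 4 of 4 days, for Cer1 with intervals that held 1 at d6 and d8. Cer1 held 6, 12, 32 and 41 reads in shLacZ and 4, 7, 4 and 4 in shDis3l2 on these days. It thus passed the count filter mainly through shLacZ, the line in which it was high. The share of 5 of 7 is in part set by that filter. Lefty1, with -1.26 ± 0.51 (edgeR adjusted p = 0.0937), and Lefty2, with -1.31 ± 0.51 (edgeR adjusted p = 0.0809), were not called. Without a filter on low counts all 7 were called, and DESeq2 called Lefty1 beside the 5. Both Lefty genes were also called without d12, the day on which their levels were not lower, and Cer1 then was not. Without d8 the calls were Nodal, Tdgf1 and Cer1. Without d10, when only 6 of the 7 passed the filter and were tested, they were Nodal and Tdgf1.

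Over d0 to d4 edgeR called 0 of the 7 genes and 0% of the 18962 genes tested, while 1467 genes and none of the 7 had an unadjusted p under 0.05. DESeq2 called 19 genes over these days and none of the 7. The change of the line difference from d0 to d4 into d6 to d12 was tested directly, and 5.24% of 20050 genes were called with a lower value in shDis3l2 at the later days. Of the 7, Nodal, with a change of -2.004 ± 0.40 on the log2 scale (edgeR adjusted p = 0.0141), and Tdgf1, with -2.54 ± 0.52 (edgeR adjusted p = 0.0150), were called. The other genes lay between -1.39 for Lefty1 and -3.68 for Cer1 (edgeR adjusted p = 0.146 and 0.0576), the latter resting on libraries with no read at d0. Neither call held without d2 or without d10, and without d8 only Nodal was called.

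Since each Lefty gene is read against Nodal within a library, their ratio does not depend on the scaling between libraries. In shLacZ the ratio of Lefty1 to Nodal, per kilobase, was 0.262, 0.757, 0.116, 0.711, 0.949, 1.01 and 1.10 at d0, d2, d4, d6, d8, d10 and d12. In shDis3l2 it was 0.177, 0.742, 0.154, 0.210, 1.37, 2.37 and 2.50. In both lines the ratio rose to d2 and dropped at d4, at d6 it was lower in shDis3l2, and from d10 it was above 2 in shDis3l2 and near 1 in shLacZ. The intervals of the lines did not overlap at d10 (1.76 to 3.21 against 0.771 to 1.32) or d12 (1.84 to 3.42 against 0.819 to 1.49).

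The ratio of Lefty2 to Nodal ran the same course at the later days. It was 0.575, 0.336, 0.116, 1.04, 1.08, 0.725 and 1.36 in shLacZ and 0.291, 0.331, 0.366, 0.283, 1.56, 2.49 and 2.24 in shDis3l2 over the 7 days. At d4 it was higher in shDis3l2 (0.338 to 0.396 against 0.0945 to 0.142), at d6 lower (0.156 to 0.493 against 0.844 to 1.29) and at d10 higher (1.89 to 3.31 against 0.556 to 0.943). At d12 the intervals met (1.68 to 3.03 against 1.05 to 1.77). Between the paralogs, Lefty1 stood at 2.25 per Lefty2 in shLacZ and 2.24 in shDis3l2 at d2, the highest ratio of either line, and at 0.999 (0.734 to 1.35) against 0.420 (0.364 to 0.483) at d4. From d6 on the intervals of the lines overlapped on every day. Gdf3 to Nodal was 0.153 (0.126 to 0.184) in shLacZ and 0.0551 (0.0458 to 0.0660) in shDis3l2 at d4, the lowest ratio of each line.

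**Figure D3:**
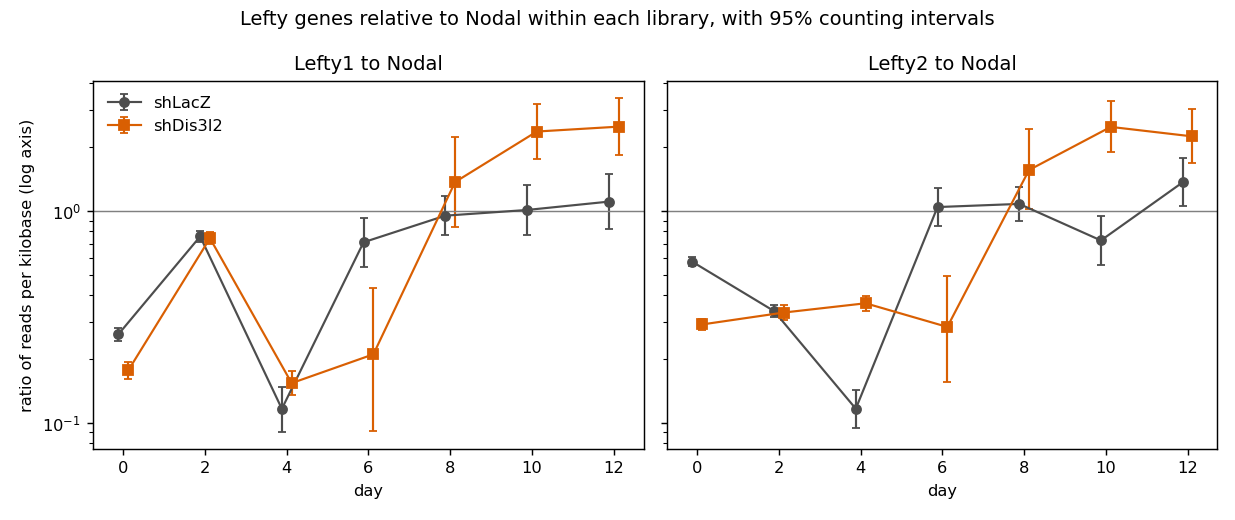
Ratio of Lefty1 to Nodal (left) and of Lefty2 to Nodal (right), in reads per kilobase on a log axis, against the day, grey for shLacZ and orange for shDis3l2, with bars for the 95% counting interval. The grey line marks equal levels, and from d10 the shDis3l2 points lie above 2 in both panels.

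The genes whose levels ran most like each of the 7 were found by Pearson's r of log2(CPM + 1) over the 14 libraries, among 11568 protein-coding genes of at least 10 CPM in 1 library. These values are descriptions, since the libraries share lines and successive days. Tdgf1 ran most like Pou5f1 (r = 0.983), which encodes the pluripotency factor OCT4, then Fut9 (r = 0.965) and Nodal itself (r = 0.963). Ggct (r = 0.982) and Cdca5 (r = 0.975) were among the genes that ran most like Nodal. Cer1 ran most like Lhfpl4 (r = 0.951) and the mesendoderm transcription factor genes Lhx1 (r = 0.945) and Mesp1 (r = 0.931). The closest genes were Ano9, Gpa33 and Slc17a9 for Gdf3, with r of 0.978 or more, Sde2, Pdha1 and Eif3j1 for Foxh1, with r of 0.959 or more, Syk, Svip and Mkrn1 for Lefty1, with r of 0.957 or more, and A230050P20Rik, Rnf167 and Faap24 for Lefty2, with r of 0.944 or more.

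Because Tdgf1 ran most like Pou5f1, the 7 genes were also set against Pou5f1, a comparison chosen after these values were seen. Since Pou5f1 was picked for its likeness to Tdgf1 in these libraries, a ratio of the lines near 1 for Tdgf1 follows in part from that choice. The same holds for Nodal, which itself ran like Tdgf1 (r = 0.963). Pou5f1 stood at 117.3, 162.8, 217.9 and 143.0 CPM in shLacZ at d6, d8, d10 and d12, and at 14.2, 18.5, 41.6 and 86.2 CPM in shDis3l2. Its own level was thus 0.121 of the control at d6 (0.102 to 0.143), 0.113 at d8 (0.101 to 0.127), 0.191 at d10 (0.176 to 0.207) and 0.603 at d12 (0.555 to 0.655).

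Per read of Pou5f1, Tdgf1 differed between the lines by a factor of 1.09 at d6 (0.800 to 1.47), 1.22 at d8 (0.991 to 1.50), 0.785 at d10 (0.661 to 0.931) and 1.17 at d12 (0.998 to 1.38). Nodal differed by 3.27 at d6 (2.24 to 4.73), 1.28 at d8 (0.850 to 1.89), 1.14 at d10 (0.828 to 1.56) and 1.04 at d12 (0.740 to 1.46). At d8, where the levels of Tdgf1 and Nodal differed by 7.23-fold and 6.87-fold, the intervals relative to Pou5f1 held 1. Those of Nodal at d6 and of Tdgf1 at d10 did not hold 1. At d0, d2 and d4 the factor for Tdgf1 was 1.27 (1.23 to 1.31), 0.952 (0.921 to 0.985) and 1.56 (1.48 to 1.63). For Nodal on these days it was 2.35 (2.24 to 2.46), 0.942 (0.889 to 0.998) and 0.767 (0.701 to 0.840). Gdf3 per read of Pou5f1 had intervals that held 1 at d6, d8 and d12 and was 2.18-fold higher in shDis3l2 at d10 (1.64 to 2.89). Lefty1 per read of Pou5f1 was 1.85-fold higher in shDis3l2 at d8 (1.25 to 2.69), 2.67-fold at d10 (2.03 to 3.53) and 2.36-fold at d12 (1.77 to 3.16). Lefty2 was 1.85-fold higher at d8 (1.36 to 2.49), 3.92-fold at d10 (3.06 to 5.04) and 1.72-fold at d12 (1.36 to 2.17). Foxh1 went the other way with time, from 6.60 at d6 (5.42 to 8.07) to 0.502 at d12 (0.387 to 0.647). Cer1 did so too, with 6.88 at d6 (1.41 to 29.4) and 4.42 at d8 (1.46 to 12.3). It then stood at 0.256 at d10 (0.0657 to 0.726) and 0.153 at d12 (0.0396 to 0.424). These Cer1 values rest on 4 to 7 reads per shDis3l2 library.

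**Figure D4:**
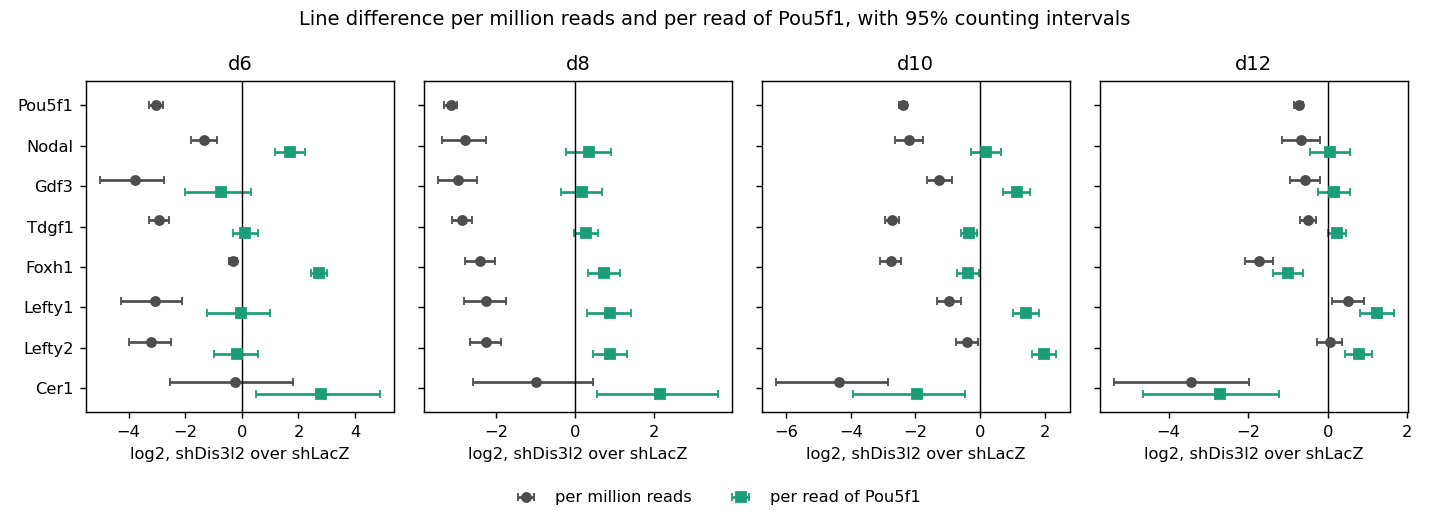
Log2 ratio of shDis3l2 to shLacZ at d6, d8, d10 and d12 for Pou5f1 and the 7 genes, on the CPM scale (grey circles) and per read of Pou5f1 (green squares), with bars for the 95% counting interval. The green squares of Tdgf1, for whose likeness Pou5f1 was picked, lie close to 0 on each day. Those of Lefty1 and Lefty2 lie above 0 from d8.

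Marker genes of the cell types that EBs hold also differed between the lines, in directions that varied by list. Over d6 to d12 the 7 pluripotency markers summed to 378.0 to 538.9 CPM in shLacZ and to 64.1 to 367.9 CPM in shDis3l2, rising from 64.1 CPM at d6 to 367.9 CPM at d12 in the latter, and 6 of 7, all but Nanog, were called lower by edgeR, as were 18.7% of all genes tested. The 4 formative epiblast markers summed to 258.1 to 495.9 against 43.9 to 109.8 CPM, and all 4 were called lower. The 6 visceral endoderm-like markers summed to 1955 to 3614 against 397.2 to 1018 CPM, with 6 of 6 called lower, and the 5 anterior visceral endoderm-like markers to 77.8 to 130.7 against 30.5 to 63.4 CPM, with 4 of 5, all but Dkk1, called lower. The 6 mesenchyme-like markers summed to 369.1 to 1506 against 915.9 to 12257 CPM, with 5 of 6, all but Pdgfra, called higher, as were 19.6% of all genes tested. Otx2 is on the formative epiblast list and also on the anterior visceral endoderm-like list, so its call counts in each. No marker of these 5 lists was at the floor in any library of d6 to d12. At d4 the visceral endoderm-like markers already summed to 489.5 (shLacZ) and 137.6 CPM (shDis3l2), while the anterior list stood at 218.3 and 482.8 CPM. Of the 5 neural-like markers Nes was called higher and Sox1 and Pax6 lower over d6 to d12, and of the 4 cardiomyocyte-like markers tested 3, Tnnt2, Myh6 and Myh7, were called higher. The part of these markers' cells in the differences of the 7 genes was not tested.

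The rest of the pathway did not move in 1 direction over d6 to d12. Of the 4 other ligands of the Nodal and activin type, 3 were tested, Inhba, Inhbb and Gdf11, and all 3 were called higher in shDis3l2, against 19.6% of all genes. Inhba, the activin A subunit, held 0 to 0.121 CPM in shLacZ and 0.565 to 2.34 CPM in shDis3l2 over these days (edgeR adjusted p = 0.00140). In shLacZ these were 0, 0, 1 and 1 reads. Inhbb, the activin B subunit, was higher by a log2 value of 1.49 ± 0.49 (edgeR adjusted p = 0.0495). It held 2, 7, 3 and 6 reads in shLacZ and 2, 10, 31 and 36 in shDis3l2. Both genes thus passed the count filter mainly through shDis3l2, the line in which they were high, so the share of 3 of 3 is in part set by that filter. Gdf1 had no read in any of the 14 libraries. Overlap with other genes was looked up for the 7 genes only, so reads lost to an overlap cannot be told from a lack of expression. Of the receptors and the second EGF-CFC coreceptor, 1 of 4 tested was called, a share near that of all genes, Acvr2a, higher by 0.46 ± 0.11 (edgeR adjusted p = 0.0142), and Cfc1, the coreceptor related to Tdgf1, had -1.76 ± 0.63 (edgeR adjusted p = 0.0624). Acvr1c, with too few reads, was not tested.

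The convertase genes Pcsk6 and Furin, whose products cleave the Nodal precursor, did not pass the threshold, Pcsk6 having -1.12 ± 0.41 (edgeR adjusted p = 0.0708) and Furin 0.40 ± 0.15 (edgeR adjusted p = 0.0736). Among the SMADs and Trim33, 2 of 4 were called, both higher, against 19.6% of all genes. Smad3 was higher by 0.94 ± 0.11 (edgeR adjusted p = 0.00120) and Smad4 by 0.28 ± 0.06 (edgeR adjusted p = 0.0124). Of the 9 other brakes and antagonists 2 were called lower, and 2, Ski and Drap1, were called higher, by 0.27 and 0.46, counts that are near the 18.7% and 19.6% of all genes called lower and higher. Fst, which encodes the activin antagonist follistatin, had a log2 value of -1.26 ± 0.14 (edgeR adjusted p = 0.00100) and the corepressor gene Tgif1 had -0.55 ± 0.12 (edgeR adjusted p = 0.0108).

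Of the 7 transcription targets reported here, all rose from d2 to d4 by edgeR, against 9.25% of all genes. At d4 they summed to 1084 (shLacZ) and 2075 CPM (shDis3l2). Over d6 to d12, 6 of these 7, all but Gsc, were called lower in shDis3l2, against 18.7% of all genes. Mixl1, a mesendoderm homeobox gene, stood at 161.0 and 328.8 CPM at d4 in shLacZ and shDis3l2 and was lower by -2.95 ± 0.59 over d6 to d12 (edgeR adjusted p = 0.00866). Eomes, a T-box gene of the same stage, stood at 300.2 and 571.1 CPM at d4 and was lower by -2.72 ± 0.33 (edgeR adjusted p = 0.00146). Both thus peaked higher in shDis3l2 at d4 and stood lower afterwards. Lhx1 and Foxa2, which were among the 6, are also on the anterior visceral endoderm-like list.

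**Figure D5:**
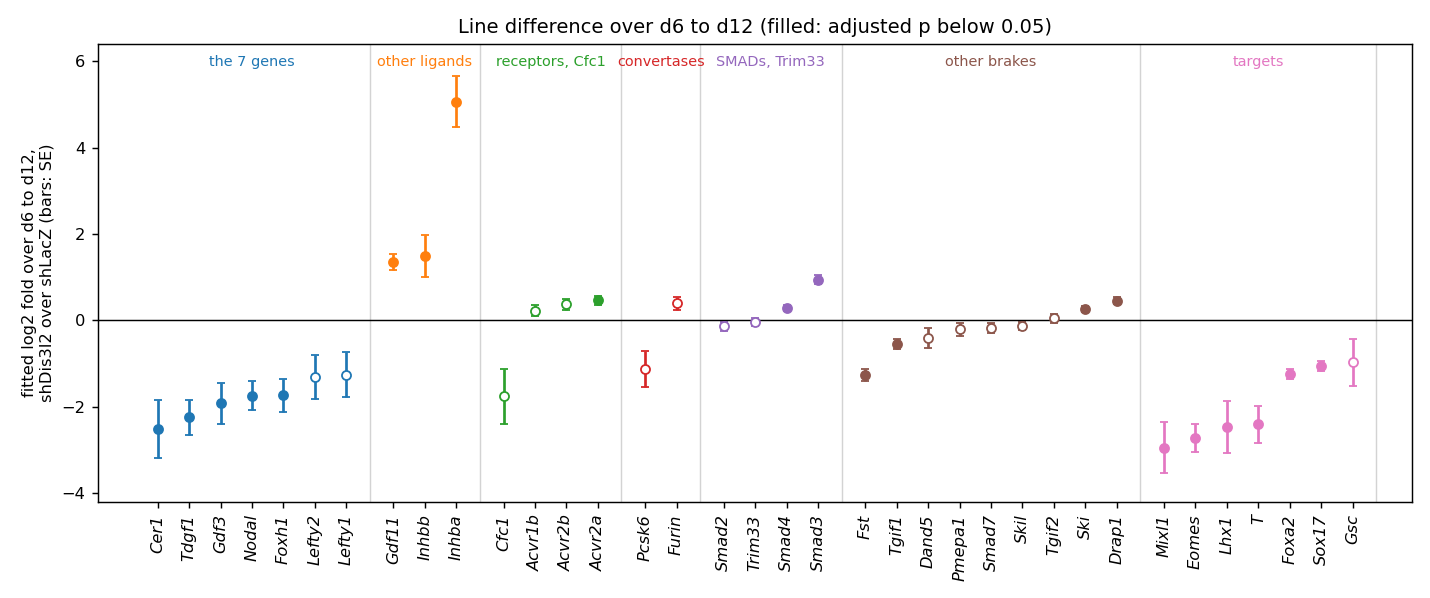
Fitted log2 difference between shDis3l2 and shLacZ over d6 to d12 for the 7 genes and the other lists of the pathway, with bars for the SE and filled points where the edgeR adjusted p is below 0.05. The 7 genes lie between -2.52 and -1.26, while the 3 other ligands lie above 0, Inhba and Inhbb with few reads in shLacZ.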

How the data were processed

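PolyA RNA of the 2 lines at 7 days was sequenced, with 1 library for each. By the study's methods, Subread placed the reads on GRCm38 and featureCounts assigned them to genes. The authors deposited these counts unnormalized, with the summed exon length of each gene, and a second table of CPM. The deposited CPM, for which the authors used edgeR, could be recomputed exactly for the 16181 genes listed there by adding 0.25 to each count. Columns headed shm5 were taken as shDis3l2 from a heading in the supplement of the paper. Of 50686 genes, 50462 matched GENCODE M21. As protein-coding were taken 21939 genes, those of that type in GENCODE and all genes of the deposited CPM table.

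CPM was computed from the counts over library totals, and RPKM with the deposited gene length. Intervals (95%, Clopper-Pearson, and the exact conditional one per read of Pou5f1) and the floor of 3 reads cover counting error only, since no molecular identifiers were used and reads can be copies of 1 molecule. Day-by-day calls used a prior count of 0.25, in proportion to the depth, and needed 1 CPM and a 3-fold difference. Fits across all genes used the quasi-likelihood test of edgeR 4.0.16 (R 4.3.3) after TMM scaling and filterByExpr, with Benjamini-Hochberg adjustment, and DESeq2 1.42.0 as the alternative. The SE of an edgeR value was worked back from the test, as the absolute log2 value over the square root of its F statistic. It is approximate, above all for genes with few reads. Fits and calls were run on simulated data with planted changes. For the fits the spread was fixed in advance, so this does not show how they do at the spread of these libraries. Ratios, similar genes and promoter motifs were computed in Python 3.11.15.

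The 7 genes, the gene lists and the tests were chosen with earlier results of these data known. Alternatives were other scalings, filters and fold thresholds, DESeq2 and each library or day left out in turn. Genes named are the 7, Dis3l2, the 3 most similar genes of each of the 7, and in each pathway list the 2 with the largest fold over d6 to d12. Other named genes, and the use of Pou5f1, were chosen after their values were seen. A gene of the target list and a gene similar to Nodal are not reported here, so the counts of targets leave 1 gene out.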

Additional observations from a re-analysis of the deposited data

Results flagged for a closer look

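The difference between the lines changed from d0 to d4 into d6 to d12 for 2 of the 7 genes, by the test of that change itself. For Nodal the change was -2.004 ± 0.40 on the log2 scale (edgeR adjusted p = 0.0141), with a line difference of 0.21 ± 0.17 over d0 to d4 and -1.74 ± 0.33 over d6 to d12. For Tdgf1 it was -2.54 ± 0.52 (edgeR adjusted p = 0.0150), with 0.25 ± 0.20 over d0 to d4 and -2.24 ± 0.41 over d6 to d12. Both genes were lower in shDis3l2 on 4 of 4 later days, and the adjusted p ranged up to 0.0552 for Nodal and 0.0572 for Tdgf1 when single days were left out or another tool or scaling was used. The pluripotency marker sums given above moved over the same days, and their part in this was not tested. With 1 library per line and day, no library could be tested as standing apart from others of its group.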

How the results depend on the processing

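Of the fold changes of the 7 genes in the fits, 132 kept their direction and side of the threshold with another scaling, filter, tool or set of days, 15 passed it newly and 4 no longer did. With 1 library or day left out, 430 kept both, 18 passed newly, 25 no longer did and 15 changed sign. Without TMM the log2 change of Tdgf1 from d0 to d2 was 0.31, and with DESeq2 that of Cer1 between the lines over d0 to d4 was -0.31, both opposite in sign to the values used. Among folds on single days, 82 moved by less than their counting interval and 12 by more. The causes of these changes were not tested.

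Of the 7 genes, the number at least 3-fold changed at d0 was 0 with DESeq2 size factors (1 as reported), at d2 1 with no minimum CPM (Cer1, with 4 reads against none), and at d4 0 with DESeq2 size factors and 3 at a 2-fold threshold, which was chosen after the data were seen. The number called from d0 to d2 was 2 without a filter and 2 with DESeq2, from d2 to d4 3 with either, Gdf3 being added, from d4 to d6 4 with DESeq2, Lefty2 being added, and from d6 to d12 1 with either. For the lines over d6 to d12 it was 7 without a filter and 6 with DESeq2. Over d0 to d4, 241 of all genes and 0 of the 7 were called without a filter. For the change of the line difference it was 7 without a filter. A fit over d6 to d12 without d8 and d10, the days on which Dis3l2 was close to the control level, also chosen after the data were seen, called 0 of the genes and 0 of all 15950 genes tested, with 3149 at an unadjusted p under 0.05, so it says nothing about the 7. Spearman's rho shared 0 of the 3 most similar genes with Pearson's r for Nodal, Tdgf1, Lefty2 and Cer1, and 1 for Gdf3, Foxh1 and Lefty1.

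With 1 library or day left out, the number called ranged from 0 to 2 for d0 to d2, from 0 to 3 for d2 to d4, from 0 to 3 for d4 to d6, from 2 to 6 for the lines over d6 to d12 and from 0 to 4 for the change of the line difference. From d0 to d2, Nodal ranged from -1.65 to 0.17 and Tdgf1 from -1.13 to 0.36. From d2 to d4, Nodal ranged from -0.63 to 0.39, Tdgf1 from -0.83 to 1.64, Foxh1 from -0.19 to 1.87 and Lefty2 from -2.11 to 0.34. From d6 to d12, Nodal ranged from -0.39 to 0.26. Between the lines over d0 to d4, Nodal ranged from -0.082 to 0.38, Gdf3 from -0.67 to 1.77e-06, Tdgf1 from -0.073 to 0.45, Foxh1 from -0.72 to 0.17 and Lefty2 from -0.14 to 0.66. The change of the line difference of Cer1 ranged from -4.21 to 1.02. Without TMM the median of all genes from d0 to d2 moved from 0.12 to 0.71 on the log2 scale, and the split of called genes from 6924 higher and 6212 lower to 9265 and 4107, and for the change of the line difference from 972 and 1051 to 1139 and 415.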
